A study of Rattus norvegicus with 8 samples.

Results

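Glycolysis and the citric acid cycle were described in the frontal cortex of rats given olanzapine or saline, through 34 genes of glucose uptake, glycolysis, lactate formation, the pyruvate dehydrogenase complex and the cycle itself. Members were all probe sets whose gene symbol in the platform's annotation table was exactly 1 of these 34 symbols. Probe sets were found for 31 genes, 48 probe sets of the 31099 on the array, and none for Pkm, Dlat and Fh under this rule. Of the 48, 6 were array control probe sets, 3 for Gapdh and 3 for Hk1. The other 42 stood for 30 genes, and each of these genes was read from its brightest probe set, called its main probe set below.

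The animals were males of the outbred Sprague-Dawley stock, weighing about 200 g. Olanzapine is an antipsychotic drug that antagonizes dopamine and serotonin receptors. It was injected intraperitoneally at 2 mg/kg/day for 21 days, and controls received saline for the same time. Of 20 animals in each group, 4 were used for arrays, and each array is named here by its group and animal number (saline 14, 15, 17 and 19, olanzapine 9, 14, 18 and 19). RNA came from dissected and homogenized tissue, so that fewer cells of a type and less RNA per cell cannot be told apart.

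Glucose enters brain cells through facilitative transporters and is split in the cytosol to pyruvate by glycolysis. Pyruvate is either reduced to lactate or carried into mitochondria, where the pyruvate dehydrogenase complex makes acetyl-CoA for the citric acid cycle, which supplies electrons to the respiratory chain. In cortex, neurons and astrocytes carry different isoforms of several glycolytic enzymes, and glucose is the main fuel of both. The members were divided into a glycolytic arm of 18 genes (transporters, glycolytic enzymes and lactate dehydrogenases) and a mitochondrial arm of 15 genes (pyruvate dehydrogenase complex and cycle enzymes). Mdh1, the cytosolic malate dehydrogenase of the malate-aspartate shuttle, was kept apart.

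Depth was set by the scaling of the arrays. The deposited intensities had a trimmed mean of 500.1 to 500.2 on all 8 arrays and medians of 159 to 191. Saline 14, 15 and 17 had a 98th percentile of 6127 to 6204, above the 5567 of saline 19 and the 5451 to 5692 of the olanzapine arrays, so the bright end of the range was lower on the olanzapine arrays and on saline 19. The 9 hybridization control probe sets, which read transcripts added to each sample, moved the same way, with a mean log2 intensity of 13.16 to 13.33 on saline 14, 15 and 17, 12.85 on saline 19 and 12.31 to 12.94 on the olanzapine arrays. The brightest markers of neurons and astrocytes were Snap25 at 21079 ± 1912 and the astrocyte gap junction gene Gja1 at 20984 ± 1711 in saline (mean ± SD, n = 4). Brightness varied within both lists. The neuron marker Syt1, at 106 ± 24.2 in saline, was too dim to be tested, and the astrocyte marker Slc1a2 was at 204 ± 57.0. All 3 choroid plexus markers on the array were too dim to be tested. The summed intensity of the 7 neuron markers was 36543 to 44590.1 in saline and 35436 to 36689.9 in olanzapine, and that of the 6 astrocyte markers 42294 to 48600.1 and 37949 to 43306. Within the neuron list the lower sum lay in Snap25, whose log2 difference was -0.35 without overlap, while the other 5 tested neuron markers differed by -0.055 to 0.030 and the list's median was -0.028. All 6 astrocyte markers had a lower mean, with a median of -0.19. The 5 oligodendrocyte markers summed to 6721 to 12140 and 7976 to 13126. Meningeal markers, 6 genes, summed to 2126 to 2668 in saline and 2804 to 7868 in olanzapine, the highest being olanzapine 9 alone, with 2804 to 4052 on the other olanzapine arrays. The part of these cell markers and hybridization controls in the differences below was not tested.

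Members were bright genes. The median of the main probe sets' mean intensities was 3223 in the glycolytic arm, from 279.6 for Pfkl to 11199 for Eno2, and 1260.3 in the mitochondrial arm, from 133 for Pdhx to 3945 for Pdha1. All 30 passed the filter on dim probe sets, and 12 of them lay among the brightest 10% of the 18625 tested probe sets. Of the 42 probe sets, 32 passed, and only Pgk1 and Mdh1 had more than 1 that did. Intensities of different genes are not compared further, because a probe set's brightness also depends on its probes.

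No member passed the test between olanzapine and saline. With limma over all 18625 probe sets, adjusted p-values of the 30 main probe sets ran from 0.333 for Tpi1 to 1.00 for Idh3a, and 0% of all tested probe sets passed an adjusted p of 0.05. At an unadjusted limma p under 0.05 there were 6 members, Tpi1, Pgk1, Pgam1, Eno2, Ldhb and Mdh1, each with a lower mean in olanzapine. These were 20.0% of the 30, where 8.32% of all tested probe sets reached that p in either direction and 3.73% did with a lower mean. Among the brightest 10% of tested probe sets the share with a lower mean at that p was 22.4%, and 5 of the 12 members found there were among the 6. As deposited, the members thus carried more low p-values than the array as a whole, and most of them sat in a range of brightness where such values were common. After quantile normalization 2 of the 30 reached that p, against 6.37% of all tested probe sets.

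The glycolytic arm had a lower mean in olanzapine in 13 of 16 measured genes and a median log2 difference of -0.14. The mitochondrial arm had a lower mean in 9 of 13, with a median of -0.081. The glycolytic value depended on the scaling: after quantile normalization 10 of 16 were lower with a median of -0.046, and after cyclic loess 12 of 16 with -0.050, while the mitochondrial medians were -0.066 and -0.065 with 9 of 13 lower in both. Median centring went the other way. The glycolytic and mitochondrial medians were then -0.20 with 13 of 16 lower and -0.13 with 10 of 13 lower. With the mean over a gene's tested probe sets in place of its brightest, both arms had a median of -0.081. Over all tested probe sets the mean was lower in 44% and the median was 0.027. Among the brightest 10% it was lower in 76.4%, with a median of -0.099, against 11 of 12 members there. The 6 members named above were 5 genes of the glycolytic arm and Mdh1, and no gene of the mitochondrial arm was among them.

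**Figure D1:**
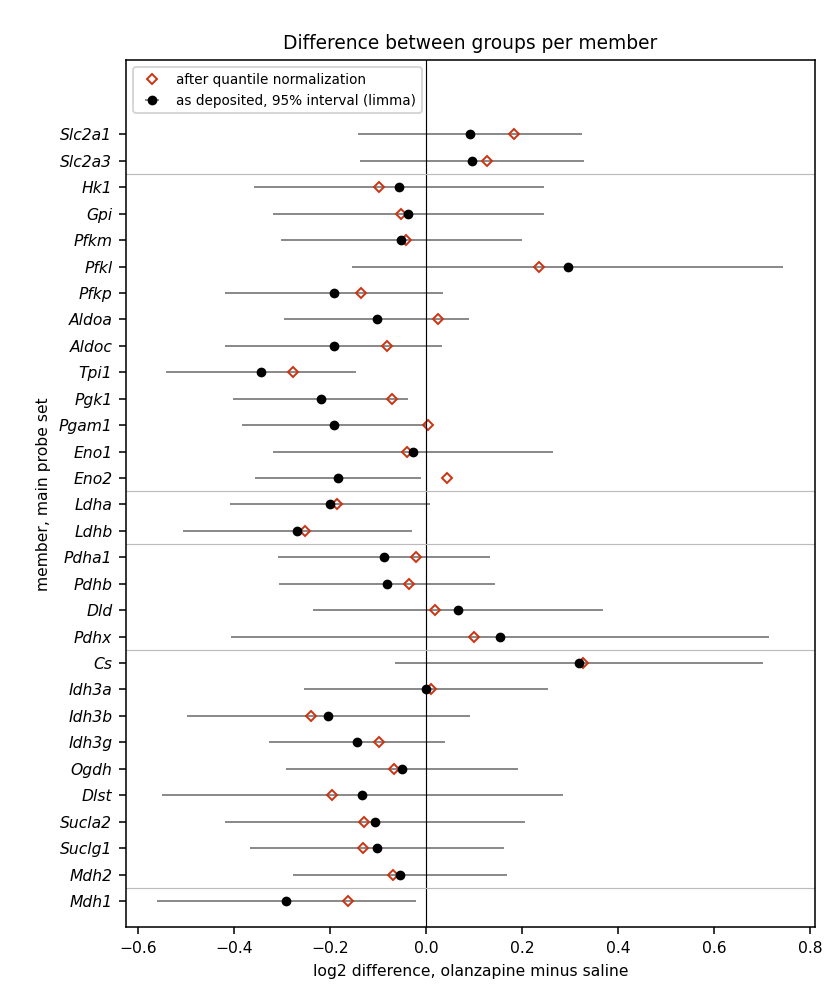
Log2 difference between olanzapine and saline (horizontal axis) for the main probe set of each of 30 members, ordered by step from glucose transport at the top to Mdh1 at the bottom. Black points are values as deposited with their 95% interval from limma and open diamonds are values after quantile normalization. Intervals of Tpi1, Pgk1, Pgam1, Eno2, Ldhb and Mdh1 lie below 0 as deposited, and Pgam1 and Eno2 are above 0 after quantile normalization.

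Glucose transport came first. Slc2a1 encodes the transporter GLUT1 of the blood-brain barrier endothelium and glia. Its intensities were 4756, 6174, 4769.9 and 4338 in saline 14, 15, 17 and 19 and 5465, 5299, 5845 and 4637 in olanzapine 9, 14, 18 and 19. The groups overlapped, with saline 15 highest of all and saline 19 lowest, and the log2 difference was 0.091 (SE 0.11, limma adjusted p = 0.866). Slc2a3, which encodes the neuronal transporter GLUT3, was at 2695, 2444, 2135 and 1951 in saline and 2306, 2412, 2374 and 2731 in olanzapine, in the same order of arrays. Here too the groups overlapped, with a log2 difference of 0.096 (SE 0.11). Both transporter genes had a higher mean in olanzapine, whereas 11 of 12 measured enzymes from glucose to pyruvate had a lower one.

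The upper steps of glycolysis trap glucose as a phosphate and split it. Hk1, the main brain hexokinase, was at 592, 826, 627 and 578 in saline and 607, 544, 749 and 606 in olanzapine. The groups overlapped over nearly their whole range, and the log2 difference was -0.056 (95% interval -0.36 to 0.25). A second, dim probe set of Hk1 that did not pass the filter read 12.7 to 20.6 in saline and 38.6 to 88.5 in olanzapine, without overlap, and the 3 Hk1 control probe sets read 8.62 to 92.5 over all arrays. Gpi, glucose phosphate isomerase, differed by -0.037 (SE 0.13).

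Phosphofructokinase, the committed step, is built from 3 subunit types, and the genes differed in sign. Pfkp, the platelet-type subunit, differed by -0.19 (SE 0.11) and the muscle-type Pfkm by -0.051 (SE 0.12). The liver-type Pfkl was the glycolytic gene with the largest positive difference, 0.30 (SE 0.21). Its saline intensities ran from 135 in saline 14 to 346 in saline 15 and its olanzapine intensities from 240.3 to 351, and without saline 14 the difference was 0.094. The aldolase genes followed: Aldoa differed by -0.10 (SE 0.091) and Aldoc, the aldolase of astrocytes, by -0.19 (SE 0.11). Without saline 15 Aldoa differed by -0.018, Aldoc by -0.083 and Pfkp by -0.095.

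Tpi1 encodes triosephosphate isomerase, which interconverts the products of aldolase. Its intensities were 4700.0, 5339, 4858 and 4254 in saline and 3894, 4067, 3425 and 3641 in olanzapine. It was the only member whose groups did not overlap on the main probe set, where 4.47% of all tested probe sets had groups that did not overlap and 2.07% did with olanzapine lower. That last share was 11.6% among the brightest 10% of tested probe sets, where Tpi1 lay. The means of Tpi1 were 4788 ± 448 and 3757 ± 282 (SD, n = 4 each). The log2 difference was -0.34 (SE 0.093, 95% interval -0.54 to -0.15, limma adjusted p = 0.333), a ratio of 0.788 on the log2(intensity + 63.5) scale. After quantile normalization it was -0.28.

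Gapdh, which encodes glyceraldehyde phosphate dehydrogenase, was measured by control probe sets alone. The one at the 3′ end of the transcript read 6041, 7288, 6794 and 6206 in saline and 5819, 5845, 6285 and 5277 in olanzapine. Only olanzapine 18 lay within the saline range, and the log2 difference was -0.18 (SE 0.087, limma adjusted p = 0.630 in a fit that kept these control probe sets). The 5′ and middle probe sets of the same transcript differed by -0.049 and -0.027. The log2 ratio of the 5′ to the 3′ probe set, a sign of RNA integrity, had a saline mean of -2.36 ± 0.17 and an olanzapine mean of -2.23 ± 0.29 (SD, n = 4, exact two-sided permutation p = 0.486, 0.914 adjusted over the 3 control genes). For beta-actin these means were -3.82 ± 0.84 and -3.76 ± 0.48, and for the dim Hk1 controls 0.49 ± 1.2 and 0.67 ± 0.54. The 3′ signal of Gapdh and beta-actin was thus well above the 5′ signal on every array of both groups.

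The lower steps make ATP and pyruvate. Pgk1, phosphoglycerate kinase, was at 8379, 8673, 8812 and 7222 in saline and 6992, 6515, 7342 and 7495 in olanzapine. Saline 19 was the low array of its group and lay among the olanzapine arrays, below 2 of them. The log2 difference was -0.22 (SE 0.085), but -0.072 after quantile normalization, and the other tested probe set of Pgk1 differed by 0.10 (SE 0.13). Pgam1, phosphoglycerate mutase, was at 10282, 11691, 10273 and 8924 in saline and 9514, 8068, 9179 and 9151 in olanzapine. Again saline 19 lay among the olanzapine arrays. The difference of -0.19 (SE 0.090) was 0.0047 after quantile normalization.

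Enolase has a neuronal and a more widely expressed gene. Eno2, the neuron-specific enolase gene, was at 12004, 12593, 12846 and 10291 in saline and 10323, 10111, 10743 and 10683 in olanzapine. The olanzapine arrays lay close together and below saline 14, 15 and 17, while saline 19 lay among them. The log2 difference of -0.18 (SE 0.081) turned to 0.043 after quantile normalization. Eno1 differed by -0.027 (SE 0.14). Within arrays, log2 of Eno2 over Eno1 was 3.17 ± 0.14 in saline and 3.02 ± 0.28 in olanzapine (SD, n = 4), and the groups overlapped.

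Lactate dehydrogenase converts pyruvate and lactate into each other. Ldha, whose subunit predominates in tissues that make lactate, was at 2366, 2332, 2111 and 1941 in saline and 2029, 1831, 1921 and 1789 in olanzapine. Only saline 19 and olanzapine 9 crossed, and the log2 difference was -0.20 (SE 0.098, limma adjusted p = 0.624). Ldhb, whose subunit is typical of heart and neurons, was at 2708, 3129, 2753 and 2626 in saline and 2646, 2526, 2292 and 1866 in olanzapine. Of the olanzapine arrays only olanzapine 9 reached the saline range, and olanzapine 19 was the lowest. The log2 difference was -0.27 (SE 0.11, limma adjusted p = 0.539), and -0.17 without olanzapine 19. Neither gene depended much on the scaling, with -0.18 for Ldha and -0.25 for Ldhb after quantile normalization, so that Ldha, Ldhb and Tpi1 kept most of their difference there while Pgk1, Pgam1 and Eno2 did not. Log2 of Ldhb over Ldha within arrays was 0.35 ± 0.11 in saline and 0.28 ± 0.17 in olanzapine.

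**Figure D2:**
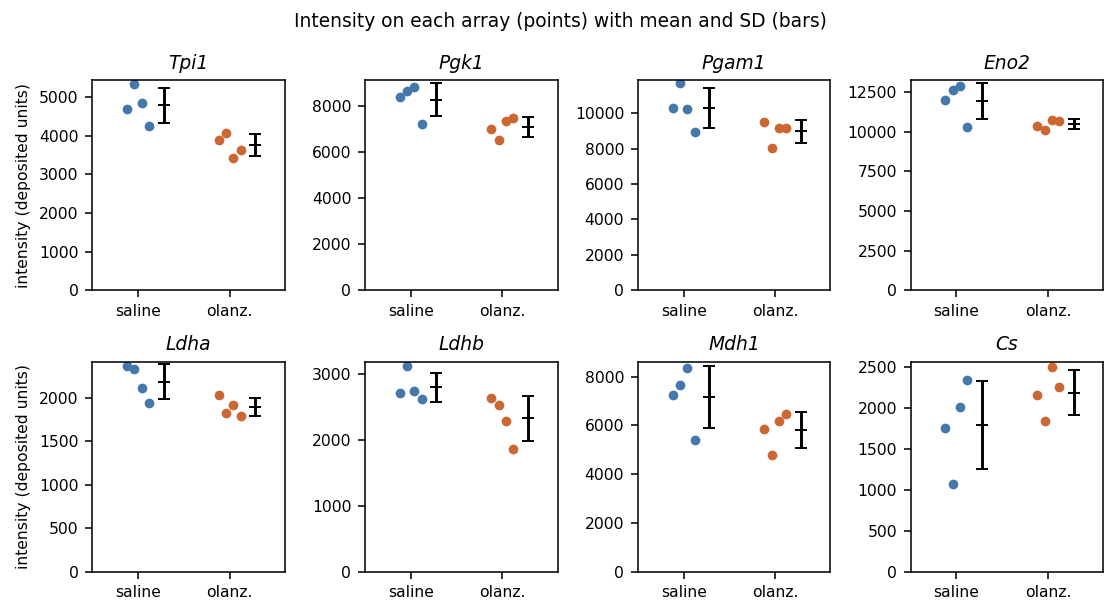
Deposited intensity (vertical axis, from 0) of 8 members on each of the 4 saline and 4 olanzapine arrays, with the mean and SD of each group as a bar beside the points. The 4 olanzapine values of Tpi1 lie below all saline values, and in the other panels the groups overlap, through 1 low saline array in Pgk1, Pgam1, Eno2 and Mdh1.

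The sequences upstream of the starts of Tpi1, Ldha and Ldhb are shown because, of the 4 genes with the largest negative differences in the glycolytic arm, these 3 kept most of the difference after quantile normalization. They are the 250 bases before the annotated start in the RefSeq annotation of the GRCr8 assembly, read 5′ to 3′ on the gene's strand, with ACGTG or its reverse complement CACGT in capitals, the core shared by the binding motif of hypoxia-inducible factor and the E-box.
Tpi1 promoter, chr4:159305089-159305338, minus strand: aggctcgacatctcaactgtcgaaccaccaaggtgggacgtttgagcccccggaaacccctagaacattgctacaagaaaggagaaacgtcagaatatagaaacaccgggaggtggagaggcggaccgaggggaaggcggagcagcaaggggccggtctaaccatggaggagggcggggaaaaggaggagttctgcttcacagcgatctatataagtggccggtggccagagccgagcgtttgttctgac
Ldha promoter, chr1:106507842-106508091, plus strand: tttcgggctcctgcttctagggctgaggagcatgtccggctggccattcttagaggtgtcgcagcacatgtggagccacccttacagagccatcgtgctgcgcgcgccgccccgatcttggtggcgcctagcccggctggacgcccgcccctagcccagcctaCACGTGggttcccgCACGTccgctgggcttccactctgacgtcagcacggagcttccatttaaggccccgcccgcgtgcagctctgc
Ldhb promoter, chr4:177177409-177177658, minus strand: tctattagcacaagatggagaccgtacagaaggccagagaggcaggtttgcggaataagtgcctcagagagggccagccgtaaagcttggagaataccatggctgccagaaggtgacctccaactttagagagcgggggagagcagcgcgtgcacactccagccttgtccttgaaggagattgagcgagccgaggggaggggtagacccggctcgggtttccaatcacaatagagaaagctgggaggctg
The letters ACGTG, on either strand, were in the window of Ldha and not in those of Tpi1 and Ldhb. Windows were matched for 31 of the 34 members, at the first listed start of each gene. Those of Pgk1, Slc2a3 and Idh3a were missing, and Pkm, Dlat and Fh, which had no probe set, were included. Of these windows 11 (35.5%) held ACGTG, 7 of 16 in the glycolytic arm and 4 of 14 in the mitochondrial arm, where 16.9% of 27457 gene windows held it. The full E-box CACGTG, which contains ACGTG, was in 3 windows (9.68%, against 5.79%), those of Ldha, Pdhb and Ogdh, and the cyclic AMP response element TGACGTCA also in 3 (9.68%, against 1.70%), those of Ldha, Ogdh and Mdh2. The letters GGGCGG, a motif of Sp1, were in 18 (58.1%, against 32.4%) and TATAAA in 2 (6.45%, against 13.1%). The palindromic motif of nuclear respiratory factor was in 1 (3.23%, against 0.849%), that of Pgam1. Each motif was searched on both strands. Members' windows had a median GC content of 60%, against 52% over all genes, and a match is a description of these letters only.

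Pyruvate is oxidized in mitochondria by the pyruvate dehydrogenase complex, of which 4 genes were measured. Pdha1 encodes the alpha subunit of its first enzyme and was at 4365, 4561, 4113 and 3277 in saline and 3929, 3762, 3993 and 3555 in olanzapine. All 4 olanzapine values lay inside the saline range, with saline 19 the lowest array, and the log2 difference was -0.088 (95% interval -0.31 to 0.13). Pdhb, the beta subunit gene, differed by -0.081 (SE 0.11). Dld, the dihydrolipoamide dehydrogenase shared with the oxoglutarate complex, differed by 0.066 (SE 0.14). The dim Pdhx, a binding protein gene of the complex, differed by 0.15 (SE 0.26), with saline 15 at 237 while saline 14, 17 and 19 lay between 75.6 and 119. Its difference was 0.40 without saline 15 and 0.028 without saline 17.

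Citrate synthase, encoded by Cs, opens the cycle and stood apart from it. Cs intensities were 1756, 1075, 2014 and 2344 in saline and 2163, 1836, 2496 and 2252 in olanzapine. Saline 15, the array with the highest values for most other members, was the lowest here. The log2 difference was 0.32 (SE 0.18, 95% interval -0.065 to 0.70, limma adjusted p = 0.699), the largest positive one of the members, and without saline 15 it was 0.10. Besides Cs only Idh3a had no lower mean in this group, with a difference that rounds to 0 (95% interval -0.25 to 0.25).

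The remaining steps of the cycle had small differences. Of the other subunits of the NAD-dependent isocitrate dehydrogenase, Idh3b differed by -0.20 (SE 0.14) and Idh3g by -0.14 (SE 0.086). Ogdh and Dlst, which encode the first 2 enzymes of the oxoglutarate dehydrogenase complex, differed by -0.050 (SE 0.11) and -0.13 (SE 0.20). Dlst ran from 221 in olanzapine 19 to 526 in olanzapine 18, wider than its saline range of 322 to 423. The succinyl-CoA ligase genes Sucla2 and Suclg1 differed by -0.11 (SE 0.15) and -0.10 (SE 0.12), and the mitochondrial malate dehydrogenase gene Mdh2 by -0.055 (SE 0.10). Their 95% intervals all contained 0, and log2 differences beyond -0.55 and 0.28 lay outside each of them.

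Mdh1, the cytosolic counterpart of Mdh2, was at 7241, 7655, 8369 and 5406 in saline and 5832, 4779.6, 6161 and 6471 in olanzapine. Saline 19 was again the low saline array and lay within the olanzapine range. The log2 difference was -0.29 (SE 0.13, limma adjusted p = 0.554). Its second tested probe set read 6806, 7991, 5696 and 5427 in saline and 5129, 5370.4, 5383 and 5354 in olanzapine, without overlap but with saline 19 only just above olanzapine 18, and differed by -0.27 (SE 0.11). After quantile normalization these differences were -0.16 and -0.15.

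**Figure D3:**
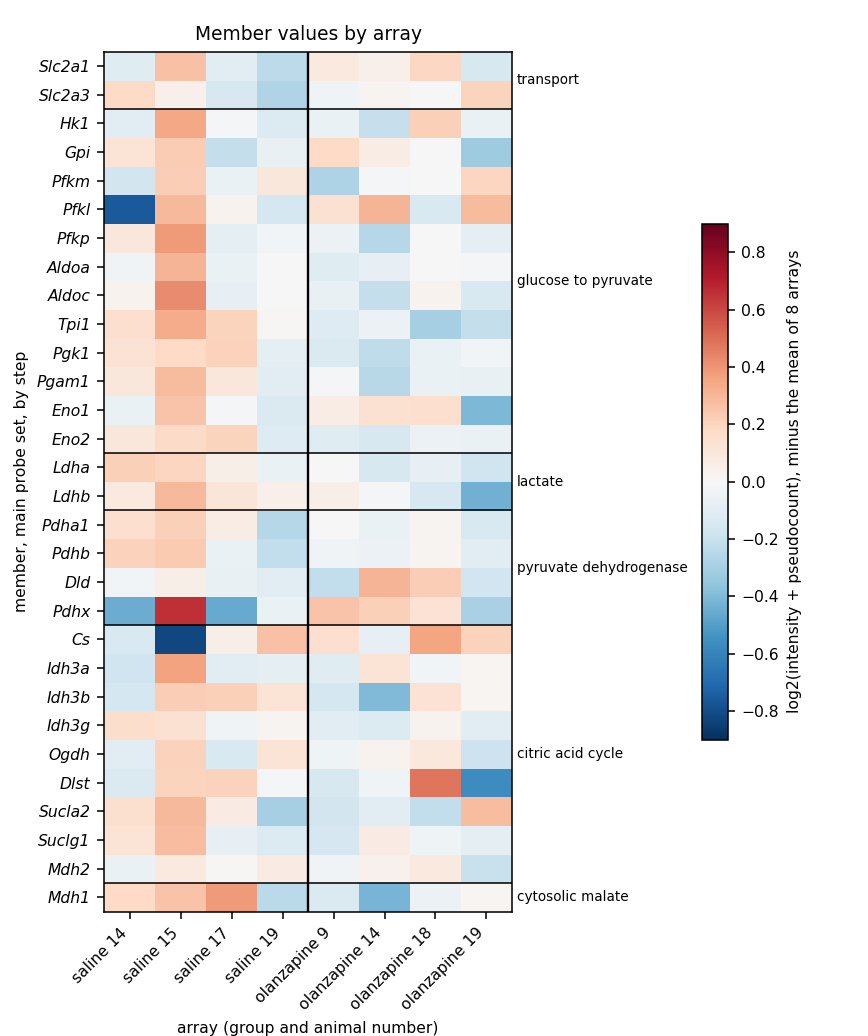
Log2(intensity + 63.5) of each member's main probe set on each array, minus that member's mean over the 8 arrays (colour, red above and blue below), with members in rows by step and arrays in columns. Saline 15 is red in most rows and blue in Cs, and saline 19 is the lowest saline array in 16 of the 30 rows.

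Saline 15 stood apart across the pathway. It was the highest of the 8 arrays in 19 of 30 members (63.3%), where it was the highest in 16.7% of all tested probe sets and in 32.1% of the brightest 10%. In the glycolytic arm it was highest in 11 of 16 genes and in the mitochondrial arm in 8 of 13. The mean log2 value of the glycolytic arm was 11.78 in saline 15, above the 11.44 to 11.52 of saline 14, 17 and 19 and the 11.42 to 11.50 of olanzapine. For the mitochondrial arm it was 10.41, against 10.21 to 10.23 and 10.15 to 10.35. Without saline 15 the median log2 difference was -0.050 in the glycolytic arm, with 9 of 16 genes lower. In the mitochondrial arm it was -0.026, with 8 of 12 lower (Pdhx did not pass the filter there). Tpi1 and Pgk1 were the members left at an unadjusted limma p under 0.05, which 8.39% of all tested probe sets reached in that fit. Saline 15 also had the lowest median correlation with the others over all tested probe sets, 0.953 against 0.965 to 0.970.

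Saline 19 went the other way. It was the lowest saline array in 16 of 30 members, 10 of them in the glycolytic arm. The same share over all tested probe sets was not counted, and the bright end of the range was lower on this array as a whole. It was the highest of the 8 arrays in 0 of the 30 members, 14.9% of all tested probe sets and 3.49% of the brightest 10%. Without this array there were 9 members at an unadjusted limma p under 0.05, where 11.5% of all tested probe sets reached it. Ldha and Pdha1 were added with lower means and Cs with a higher one. In that fit 106 probe sets of the whole array and 0 of the members passed an adjusted p of 0.05. With so small a share of the array passing, 0 of 30 does not set the members apart from it. The smallest adjusted p of a member there was 0.0737, for Tpi1. The spread was larger in saline for 22 of 30 members (73.3%), where it was larger in 63.6% of all tested probe sets and 71.9% of the brightest 10%. Without saline 15 it was larger for 14 of 30 (46.7%), where the shares were 54.2% of all tested probe sets and 64.4% of the brightest 10%. The median coefficient of variation of the intensities was 13.6% in saline and 8.90% in olanzapine.

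The glycolytic arm minus the mitochondrial arm, in mean log2 value per array, was 1.30, 1.37, 1.30 and 1.23 in saline and 1.30, 1.21, 1.15 and 1.28 in olanzapine. The groups overlapped, with means of 1.30 ± 0.055 and 1.23 ± 0.067 (SD, n = 4). The medians of the 2 arms' log2 differences were apart by -0.062 as deposited and after median centring, and by 0.020 after quantile normalization. The order of the arms thus depended on the scaling. By brightness, 8 glycolytic genes among the brightest 10% had a median of -0.19 and the other 8 one of -0.044, and 3 mitochondrial genes in that range had one of -0.088 and the other 10 one of -0.052. After quantile normalization these 4 medians were -0.034, -0.046, -0.035 and -0.067. The glycolytic and mitochondrial steps were not separated beyond the spread between arrays.

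**Figure D4:**
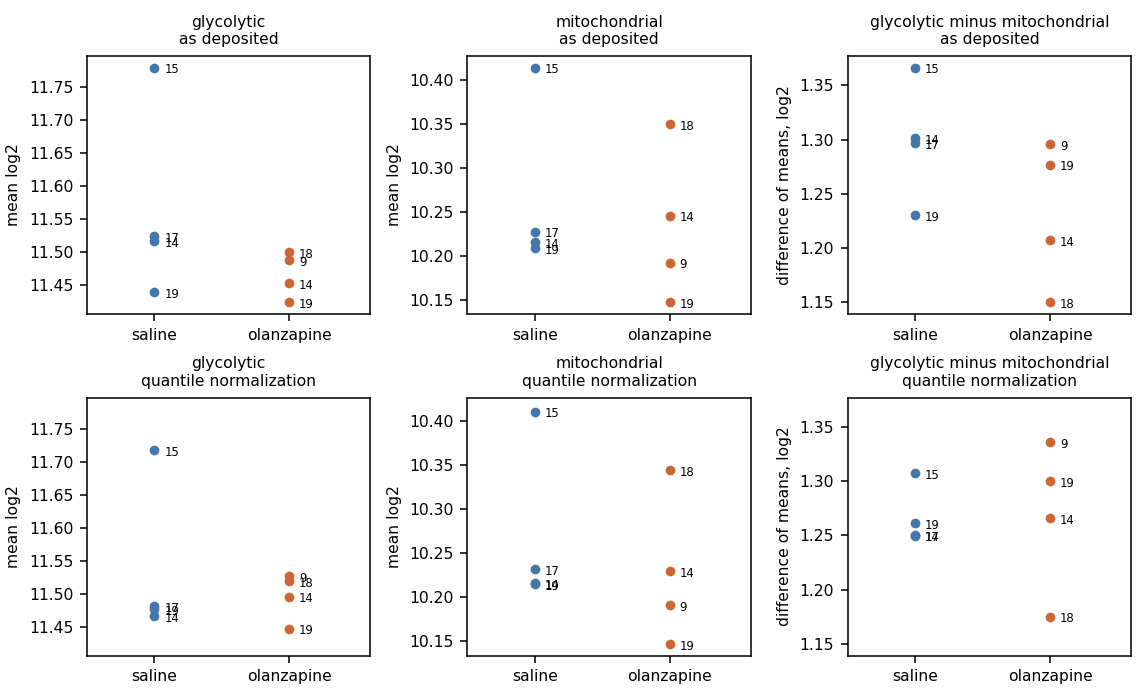
Mean log2 value of the 16 glycolytic and 13 mitochondrial genes, and the glycolytic minus the mitochondrial mean, on each array (points, labelled by animal number), as deposited in the upper row and after quantile normalization in the lower row. Saline 15 is the highest array in both arms, and the group means of the third measure are 1.30 and 1.23 as deposited and 1.27 and 1.27 after quantile normalization.

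**Figure D5:**
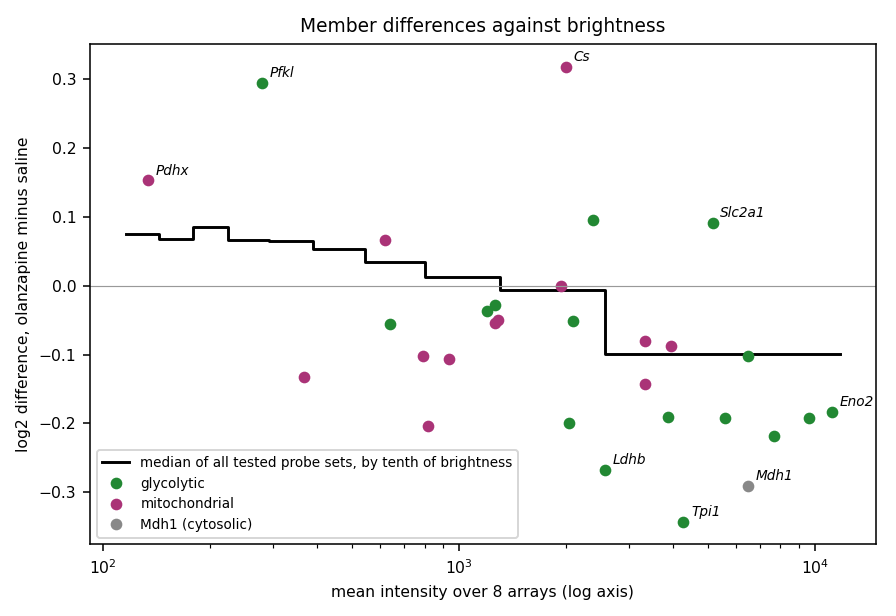
Log2 difference between olanzapine and saline against mean intensity over the 8 arrays (log axis) for the 30 members, with the median of all tested probe sets in steps of 10% of brightness as a line. The line runs from 0.076 for the dimmest tested probe sets to -0.099 for the brightest, and Tpi1 and Ldhb lie farthest below it.

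Isoform pairs of a step that differ in their usual cell types had no separated groups. Within arrays, log2 of Aldoc, typical of astrocytes, over Aldoa was -0.17 ± 0.059 in saline and -0.26 ± 0.096 in olanzapine (SD, n = 4). Slc2a3 over Slc2a1 was -1.10 ± 0.21 and -1.09 ± 0.24, and Pfkp over Pfkm 0.94 ± 0.18 and 0.80 ± 0.24. In all 5 pairs compared the saline and olanzapine arrays overlapped.

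Other genes of these pathways were taken from a list of enzymes, transporters and regulators. Of 61 with a probe set, 49 passed the filter, and 0 passed an adjusted limma p of 0.05. At an unadjusted p under 0.05 there was 1, with a higher mean, which is 2.04% of them, where 4.59% of all tested probe sets reached that p with a higher mean. This was Rpe, ribulose phosphate epimerase of the pentose phosphate pathway. It read 344, 299, 278 and 405 in saline and 461, 587, 408 and 537 in olanzapine. Its groups did not overlap, although saline 19 and olanzapine 18 nearly met, and 2.4% of all tested probe sets had groups apart in that direction. The log2 difference was 0.51 (SE 0.16, limma adjusted p = 0.403). Means were lower in olanzapine in 19 of the 49 (38.8%) and higher in 30, with a median of 0.016, where 44% of all tested probe sets had a lower mean. Of the genes that regulate entry of pyruvate into the cycle, the pyruvate dehydrogenase kinase gene Pdk1 differed by -0.19 (SE 0.18), Pdk2 by -0.016, Pdk3 by 0.016 and Pdk4 by 0.35 (SE 0.22), and the pyruvate carrier genes Mpc1 and Mpc2 by -0.033 and -0.080. In the cycle itself the succinate dehydrogenase genes Sdha, Sdhb, Sdhc and Sdhd differed by -0.050, 0.18, 0.12 and -0.029. Lower means were found in 5 of 9 other genes of glucose transport and glycolysis and in 5 of 10 of monocarboxylate transport and pyruvate. The citric acid cycle genes outside the member list had lower means in 6 of 11, the shuttle genes in 2 of 7, the glycogen genes in 1 of 7 and the pentose phosphate genes in 0 of 5.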

How the data were processed

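Olanzapine and saline were compared in 4 arrays each. The authors deposited linear probe set intensities, 1 table of 31099 probe sets on 8 arrays of a rat platform. For the software, the background correction and the probe summary: not given in the sources used here. After trimming 2% at each end the deposited intensities had equal means on all arrays, so they had been scaled by 1 factor per array, which leaves differences that vary with brightness in place. Gene symbols came from the 2016 version of the platform table. Of the 31042 that were not controls, 20826 had 1 gene symbol, 436 several and 9780 none, and only those with 1 were named.

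Values were analysed as log2(intensity + 63.5). The pseudocount, the 25th percentile of the intensities, understates the change of dim genes. A filter kept the 18625 probe sets whose mean log2 value exceeded the 40th percentile. They were fitted in limma 3.58.1 under R 4.3.3 (lmFit, eBayes with a mean-variance trend, two-sided, no covariates) with Benjamini-Hochberg adjustment over all 18625 at 0.05. On simulated data with these 18625 probe sets, 38.8% of 1.5-fold and 85.0% of 2-fold changes were called, and 6.48% of calls were false. The simulated noise was normal and independent, with the variances of the fit, and the changes were set on the log2(intensity + 63.5) scale. It held no deviant arrays and no shift with brightness, which the real arrays have, so these figures describe the simulated data only. Medians and counts over members carry no test. Alternatives were quantile normalization, median centring, cyclic loess, pseudocounts of 16 and 256, no filter or one at the 60th percentile, no trend, array weights, the mean over a gene's tested probe sets, the animal number as a block, and each array left out. The fit that kept control probe sets of Gapdh was added after the data were seen.

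The members and gene lists were chosen with earlier results of these data known. Members with an unadjusted p under 0.05 or separated groups, the smallest p of each step, and Slc2a1, Hk1, Gapdh, Ldha, Ldhb, Cs and Mdh1 are given by array. Genes of the wider list are named where they met the first condition, and Pdk, Mpc and Sdh genes were named after their values were seen. The number of arrays limits the precision.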

Additional observations from a re-analysis of the deposited data

Results flagged for a closer look

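Of 64 groups of 4 arrays checked (30 members and the means of the 2 arms, each in saline and olanzapine), 4 had an extreme array whose gap to its neighbour passed the 95% critical value of Dixon's ratio of gap to range, where chance gives about 1 in 20 groups. In saline the mitochondrial mean had saline 15 at 10.41 against 10.21 to 10.23, a gap of 0.909 of the range. Aldoa in saline had the same array high, at 8001 against 6181 to 6439.8 in the others (0.841). In olanzapine, Eno1 had olanzapine 19 low, at 928 against 1313 to 1394, in log2 9.95 against 10.43 to 10.51 (0.852). Idh3g had olanzapine 18 high, at 3399.8 against 3051 to 3102 (0.848).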

How the results depend on the processing

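No member probe set passed the adjusted limma test as reported or under any alternative that was run (0 called in each). The count of all probe sets that passed was 0 as reported. It was 0 to 106 with 1 array left out (106 without saline 19, 1 without olanzapine 9). With the animal number as a replicate block it was 6. That fit compares only the arrays whose number occurs in both groups, so its counts do not describe all 8 arrays. Members at an unadjusted p under 0.05 were 6 as reported, 2 after quantile normalization (Tpi1 and Ldhb), 1 after cyclic loess and 1 without the trend (Tpi1 in both), 1 with the replicate block (Pfkl, higher), and 2 to 9 with 1 array left out. Tpi1 was among them in each of the 8 fits with an array left out. The share of all tested probe sets at that p was 8.32% as reported and 6.37% after quantile normalization. It was 6.42% after cyclic loess, 6.99% without the trend and 5.32% with the replicate block, where 1 of 30 members was a smaller share. Without saline 15 it was 8.39%, above the share of 2 of 30 members. Without saline 19 it was 11.5%, below that of 9 of 30. With 1 array left out, the glycolytic median lay between -0.17 (saline 19 omitted) and -0.050 (saline 15 omitted), and the mitochondrial median between -0.16 (saline 19 omitted) and -0.0051 (olanzapine 19 omitted). Over all tested probe sets of a gene both medians were -0.081. Glycolytic minus mitochondrial was 0.020 after quantile normalization, 0.015 after cyclic loess, -0.062 after median centring and -0.14 to -0.013 with 1 array left out. The causes were not tested. Median centring moved the median of all tested probe sets by -0.052.

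The numbers 14 and 19 occur in both groups but name different animals. Deviations of same-numbered arrays correlated at 0.075 and 0.11, so the numbers are not taken as pairs in the reported fit. The replicate block fit did take them as pairs and rested on these arrays alone, so no conclusion is drawn from it.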
